A study of Homo sapiens with 9 samples.

Results

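Cultures of transfected cells can differ in how fast they were growing at harvest, but growth itself was not measured here. Of the 9 arrays of this series 6 were set against each other by the signal of proliferation genes. The 3 arrays with the highest mean signal of the proliferation genes MKI67, CCNE2, MCM6 and CDC6 were called the high arrays, and the 3 with the lowest mean the low arrays. The high arrays were labelled TFPIα replicate 2, TFPIα replicate 3 and TFPIβ replicate 3. The low arrays were labelled TFPIβ replicate 1, TFPIβ replicate 2 and empty vector replicate 2, and the other 3 arrays entered neither set. The arrays were thus chosen by their measured cell cycle genes and not by a treatment, so every difference between the 2 sets is given below as a description with no test. The account turns mainly on the genes outside the cell cycle.

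All 9 arrays held total RNA labelled as SK-BR-3, a breast cancer line of luminal type known for ERBB2 amplification. The cells carried, after antibiotic selection, a pcDNA3.1/V5/His-pTOPO plasmid with TFPIα cDNA, the same plasmid with TFPIβ cDNA, or the empty vector, with 3 replicates each. TFPI is the inhibitor of the tissue factor pathway that starts blood coagulation, TFPIα is its secreted form and TFPIβ its form anchored at the cell surface. Each line was a stable pool of transfected cells, and the replicates were labelled biological and came, by the study's methods, from separate RNA isolations of each line. The unit throughout was the log2 signal after robust multichip averaging (RMA), in which a difference of 1 is a doubling, and levels of different genes were not ranked because probe sets differ in affinity.

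The TFPI signal used here could not check the labels, and array names below are the labels and nothing more. By the study's account the plasmids held only the coding region of TFPI, and the array's probes that lie outside it did not detect the plasmid's transcript. With another signal algorithm, which drops weak probes, the study reported TFPI as higher on the arrays with either plasmid. It also summarised earlier measurements of higher TFPI mRNA and antigen in both lines. In the RMA signals, TFPI was not higher in the arrays labelled TFPIα than in the empty vector arrays (log2 difference -0.59, SE 0.19, limma adjusted p = 0.335). With the replicate number as a block the limma adjusted p was 0.19. TFPI lay between 5.51 and 6.48 in all 9 arrays. KRT14 and its partner KRT5, which basal layers of epithelium make, were detected at 12.43 ± 0.29 and 12.64 ± 0.16 (mean ± SD, n = 9), although SK-BR-3 is known as luminal. ERBB2 stood at 5.88 ± 0.18 and GRB7, another marker chosen for SK-BR-3, at 5.15 ± 0.09. How far their own probes limit these signals was not tested. Of the luminal keratins, KRT8 stood at 5.86 ± 0.15, KRT19 at 4.88 ± 0.20 and KRT18 at 10.40 ± 0.43. Between the high and the low arrays these keratins, ERBB2 and GRB7 differed by at most 0.55, the value of KRT14, which was lower in the high arrays. Of the markers of other cells, PTPRC, CD3E, PDGFRB, COL3A1, CDH5, VWF and KDR stayed below the signal filter of 5 in every array. It was passed by 3 of 14 leukocyte, 6 of 12 fibroblast and 3 of 10 endothelial markers. Among these were the fibroblast genes DCN at 10.13 ± 0.61 and COL1A1 at 7.07 ± 0.60. CD14 at 7.67 ± 0.87, CD68 at 7.46 ± 0.34, PECAM1 at 5.46 ± 0.15 and TYROBP at 5.36 ± 0.07 passed too. The part of such markers in the differences below was not tested.

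In dividing cells the factors of the E2F family turn on genes for origin licensing and DNA synthesis before S phase, and a second wave of genes for chromosome segregation follows before mitosis through the DREAM and MYB-MuvB complexes at an element called CHR, often near CCAAT boxes bound by NF-Y. Cells that leave the cycle raise CDK inhibitors and growth arrest genes, several of them targets of FOXO factors at forkhead sites. Growth factor signals through the EGF receptor and the MAP kinases of the ERK class drive the entry into the cycle in epithelial cells. These signals switch on their own inhibitors, such as the DUSP and SPRY proteins, and also the PEA3 group of ETS transcription factors. Genes of both kinds are widely used as readouts of that pathway.

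The promoters of 3 of the marker genes and of 2 further genes show these elements. Each sequence runs 5′ to 3′ from 250 bases before to 50 bases after the RefSeq gene start in GRCh38.p14, and capitals mark motif words found on either strand. The word for the CHR was TTTGAA, that for E2F factors was TTTGGCGC or TTTCGCGC, a box bound by NF-Y was the word CCAAT itself, and the forkhead word was GTAAACA. MCM6, a subunit of the replicative helicase, is at chr2:135876394-135876693 on the minus strand. CDC6, which loads that helicase, is at chr17:40287629-40287928 on the plus strand. MKI67, the Ki-67 antigen of cycling cells, is at chr10:128126374-128126673 on the minus strand. DTL, the adaptor that marks the licensing factor CDT1 for destruction in S phase, is at chr1:212035498-212035797 on the plus strand, and TXNIP, an inhibitor of glucose uptake and of thioredoxin, at chr1:145996530-145996829 on the minus strand, the first of its 2 listed promoters.
MCM6: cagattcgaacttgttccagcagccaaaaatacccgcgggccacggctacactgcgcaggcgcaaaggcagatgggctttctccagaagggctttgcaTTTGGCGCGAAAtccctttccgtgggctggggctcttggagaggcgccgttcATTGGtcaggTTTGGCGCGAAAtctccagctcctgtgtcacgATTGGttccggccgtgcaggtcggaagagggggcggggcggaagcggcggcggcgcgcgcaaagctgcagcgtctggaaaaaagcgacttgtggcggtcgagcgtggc
CDC6: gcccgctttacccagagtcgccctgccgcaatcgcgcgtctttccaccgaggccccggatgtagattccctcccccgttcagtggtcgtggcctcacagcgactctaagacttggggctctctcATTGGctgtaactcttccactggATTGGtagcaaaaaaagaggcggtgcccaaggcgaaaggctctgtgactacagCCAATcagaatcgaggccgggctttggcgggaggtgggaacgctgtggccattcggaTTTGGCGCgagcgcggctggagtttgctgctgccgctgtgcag
MKI67: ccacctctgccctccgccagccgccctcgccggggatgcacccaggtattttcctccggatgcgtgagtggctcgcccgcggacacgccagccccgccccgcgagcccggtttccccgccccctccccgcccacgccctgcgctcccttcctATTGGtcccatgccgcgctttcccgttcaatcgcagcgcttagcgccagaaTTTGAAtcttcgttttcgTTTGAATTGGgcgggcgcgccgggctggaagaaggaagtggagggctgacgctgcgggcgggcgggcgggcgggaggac
DTL: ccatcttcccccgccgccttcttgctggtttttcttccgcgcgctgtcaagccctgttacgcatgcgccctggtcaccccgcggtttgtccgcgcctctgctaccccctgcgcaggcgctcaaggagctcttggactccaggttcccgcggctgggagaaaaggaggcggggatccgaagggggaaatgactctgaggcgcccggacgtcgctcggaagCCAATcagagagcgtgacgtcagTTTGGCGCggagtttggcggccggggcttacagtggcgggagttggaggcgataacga
TXNIP: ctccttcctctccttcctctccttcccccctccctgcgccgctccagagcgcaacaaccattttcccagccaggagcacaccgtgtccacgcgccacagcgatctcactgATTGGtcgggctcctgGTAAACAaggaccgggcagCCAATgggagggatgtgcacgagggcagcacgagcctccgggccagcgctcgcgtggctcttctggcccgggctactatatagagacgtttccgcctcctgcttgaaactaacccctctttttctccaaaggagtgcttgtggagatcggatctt

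The MCM6 window held the 2 E2F words overlapping on opposite strands at both of its sites, at -152 and -90, counted as the first base from the gene start. CDC6 had 1 E2F word at 8 and DTL 1 at -8, and each had at least 1 CCAAT box. MKI67 had no E2F word but 2 CHR words at -47 and -29, the second of which overlapped a CCAAT box. The TXNIP window held a forkhead word at -124 between 2 CCAAT boxes. Over all 35116 promoters of the table, an E2F word was present in 1.15%, a CHR word in 15.2%, a CCAAT box in 34.6% and a forkhead word in 3.42%. E2F words were in 7 of 25 promoters of the licensing genes (28.0%) and 14 of 59 of the replication genes (23.7%), and CHR words in 65 of 120 of the mitosis genes (54.2%). Among genes outside the cell cycle lists, the promoters of those at least 2-fold higher in the high arrays held an E2F word in 4.87% of 267. These still included cell cycle genes that no list held, such as DTL. Those at least 2-fold lower held an E2F word in 0.51% of 196. A forkhead word was in 4 (1.5%) of the former and 13 (6.63%) of the latter promoters, and a CHR word in 21.7% and 8.67%. Promoters of 1 gene share sequence, and such matches describe the windows only.

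The 4 genes that set the order fell along the arrays as follows. The mean of the 4 was 8.49 in TFPIα 3, 8.48 in TFPIβ 3 and 8.21 in TFPIα 2, and it was 6.41 in TFPIβ 1, 5.72 in empty vector 2 and 5.25 in TFPIβ 2. Just outside the sets stood TFPIα 1 at 7.99 and, at the lower edge, empty vector 3 at 6.71, with empty vector 1 at 7.0. Both boundaries were thus narrow. CCNE2, which encodes the S-phase cyclin E2, had the largest difference between the sets, with 7.22, 7.49 and 7.70 in TFPIα 2, TFPIα 3 and TFPIβ 3 against 4.02, 4.10 and 4.32 in TFPIβ 1, TFPIβ 2 and empty vector 2. MCM6 read 8.65, 9.02 and 9.04 against 6.84, 6.06 and 6.25 in the same order. CCNE2, MCM6 and CDC6 would each alone have picked the same 6 arrays, but MKI67 would not. Its highest value of 8.57 was in TFPIα 1, and empty vector 1 with 7.72 lay below the low array TFPIβ 1 with 7.76. The first principal component of all kept probe sets, with 45.45% of the variance, placed the high arrays at 26.2 to 35.2 and the low arrays at -38.4 to -17.5, with the other 3 between -3.50 and 8.24.

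**Figure D1:**
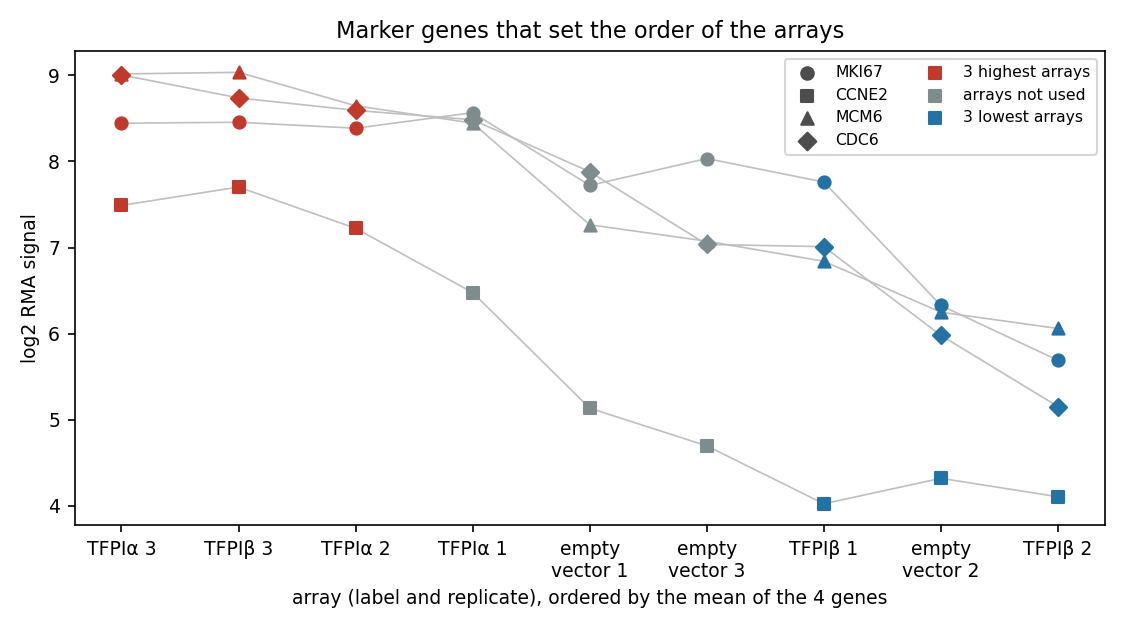
Log2 RMA signal (vertical axis) of MKI67, CCNE2, MCM6 and CDC6 in the 9 arrays (horizontal axis), ordered by the mean of the 4 genes; red points are the 3 high arrays, blue the 3 low arrays and grey the 3 arrays in neither set. TFPIα 1, with a mean of 7.99, lay close under the high arrays, while the low arrays reached from 6.41 down to 5.25.

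The 2 sets stood apart widely. Of 17482 probe sets with a signal of at least 5 in some array, 3960 (22.7%) had all 3 high arrays above all 3 low arrays and 3767 (21.5%) had them all below, which is called apart in what follows. At a mean difference of at least 2-fold the counts were 527 higher (3.01%) and 220 lower (1.26%). These shares are the background against which the lists below are to be read, and the median difference over all probe sets was -0.01. Of the 270 probe sets of the cell cycle lists 240 were apart and higher, 186 of them by at least 2-fold, and 4 were apart and lower. Outside these lists the numbers were nearly even, with 2825 apart and higher and 2745 apart and lower among 11568 probe sets with 1 gene symbol, but at 2-fold or more 275 were higher and 171 lower. The array medians over the kept probe sets ran from 6.52 to 6.55 in the high arrays and from 6.45 to 6.51 in the low arrays, and with arrays centred on them the 2-fold counts were 457 and 259.

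Within the cell cycle, all lists shifted the same way, as the choice of arrays fixed. All 22 origin licensing genes were apart and higher, with a median log2 difference of 1.76, and so were 46 of 47 DNA replication genes (median 1.43) and 102 of 113 mitosis genes (median 1.40). CLSPN, the checkpoint mediator claspin, read 7.04, 7.29 and 7.25 in TFPIα 2, TFPIα 3 and TFPIβ 3 against 4.30, 3.68 and 3.57 in TFPIβ 1, TFPIβ 2 and empty vector 2. These low values, like those of CCNE2, lay under the filter of 5, so the size of the difference is uncertain. The replication-dependent histones were less uniform, with 28 of 41 apart and higher, 2 apart and lower, and a median of 1.31. Nucleotide synthesis genes, which supply DNA precursors, had a smaller median of 0.82 with 16 of 18 apart, RRM2 (a ribonucleotide reductase subunit) at 1.89 and TYMS (thymidylate synthase) at 1.74. The low arrays also differed among themselves: relative to each gene's mean over 9 arrays, the mitosis list had a median of 0.01 in TFPIβ 1 but -1.39 in TFPIβ 2 and -0.99 in empty vector 2, whereas the licensing list had -0.41, -1.28 and -1.14. In bulk RNA a smaller share of cycling cells and less of these transcripts per cell cannot be told apart.

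Outside those lists, the top 15 genes by difference fell into a few kinds. FAM111B (3.03), DTL (2.95), the helicase gene MCM8 (2.12), the cohesin acetyltransferase gene ESCO2 (2.10) and WDR76 (2.06) are replication or cell cycle genes, although no list held them. DUSP6, ETV5 and ETV1 belong to the MAP kinase readouts, IL6 is a cytokine, FN1 is fibronectin, and SERPINE2 and TFPI2 are secreted protease inhibitors. SLC20A1 (2.29), a phosphate transporter, STEAP1B (2.04) and SLITRK6 (1.99), a neuronal adhesion protein, completed them. FAM111B, ETV5, ESCO2, ETV1, STEAP1B and SLITRK6 passed the filter of 5 through other arrays, since all 3 of their low arrays lay under it, where signals approach background and the size of a difference is uncertain.

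TFPI2, a Kunitz-type inhibitor related to TFPI but encoded by another gene, was 8.0-fold higher in the high arrays. Its signal was 10.22, 10.74 and 10.03 in TFPIα 2, TFPIα 3 and TFPIβ 3, and 7.5, 7.01 and 7.48 in TFPIβ 1, TFPIβ 2 and empty vector 2. The arrays in neither set stood between, at 8.65 in TFPIα 1, 8.56 in empty vector 1 and 9.03 in empty vector 3. The sets thus did not overlap, and arrays labelled TFPIβ were in both of them. Its difference was 2.77 within the arrays labelled TFPIβ alone (replicate 3 minus the mean of replicates 1 and 2) and 2.97 within replicate number 2 (TFPIα minus the mean of TFPIβ and empty vector). These were the only label and the only replicate number that held arrays of both sets.

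**Figure D2:**
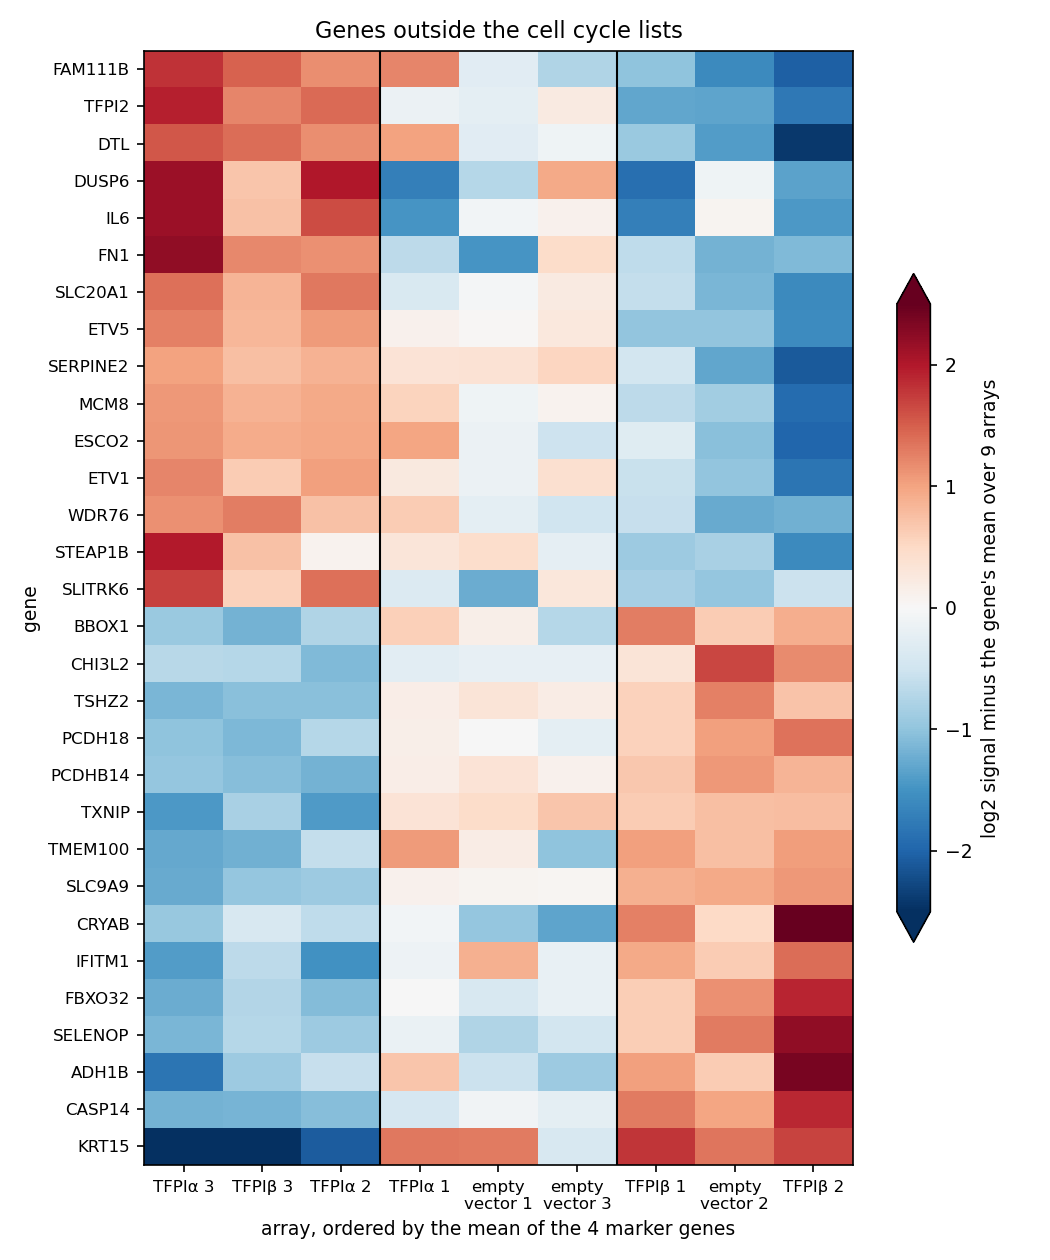
Log2 signal minus the gene's own mean over the 9 arrays (colour scale, red above and blue below, clipped at the ends) for the 15 most positive and the 15 most negative genes outside the cell cycle lists; columns are arrays ordered by the mean of the 4 marker genes and the vertical lines separate the high arrays, the arrays in neither set and the low arrays. KRT15 differed most, by -3.97, and DUSP6 and IL6 were low in TFPIα 1 although its cell cycle genes were high.

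Feedback genes of the MAP kinase pathway were higher in the high arrays, but less evenly than the cell cycle genes. Of 26 measured EGF receptor ligands and MAPK feedback genes 12 were apart and higher, 0 apart and lower, and 6 passed 2-fold, with a median difference of 0.51 that was 0.80 without TFPIβ 3. DUSP6, the phosphatase that inactivates ERK, was at 9.07, 9.20 and 7.76 in TFPIα 2, TFPIα 3 and TFPIβ 3, and at 5.17, 5.73 and 6.97 in TFPIβ 1, TFPIβ 2 and empty vector 2. The difference was 2.72, or 6.58-fold, but empty vector 3 with 8.01 stood above the high array TFPIβ 3, and TFPIα 1 with 5.36 stood among the low arrays. The ETS factors ETV5 (2.24), ETV4 (1.75) and, outside the list, ETV1 (2.09) and the ERK feedback inhibitors SPRY4 (1.45) and SPRY2 (0.93) were apart and higher as well. EREG, an EGF receptor ligand, read 9.44, 9.75 and 8.96 against 7.16, 7.46 and 8.17, a difference of 1.79. The immediate early genes did not separate the sets, with 0.14 for FOS, -0.30 for JUN, 0.20 for MYC and 1.04 for EGR1, and the sets overlapped in each. The median of the list was 0.13 within TFPIβ and 0.91 within replicate number 2, and relative to each gene's mean over 9 arrays it stood at 0.49 in TFPIα 2 and 0.61 in TFPIα 3 but 0.04 in TFPIβ 3.

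IL6 moved like these genes, although it was placed in the list of cytokines and NF-kB targets. It read 7.73, 8.23 and 6.83 in TFPIα 2, TFPIα 3 and TFPIβ 3, 4.38 and 4.66 in TFPIβ 1 and TFPIβ 2, and 6.15 in empty vector 2, a difference of 2.53. The rest of its list did not move with it, since 3 of 29 members were apart and higher (IL6, the alarmin gene IL33 and PTGS2, the inducible cyclooxygenase) and 5 apart and lower, with a median of -0.12 that ran from -0.22 without TFPIβ 1 to 0.01 without empty vector 2. The shares of 10.3% and 17.2% were both under the background.

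Extracellular matrix genes split rather than shifted. Of 31 measured genes 7 were apart and higher (22.6%, at the background) and 11 apart and lower, with a median of -0.05 that ran from -0.11 without empty vector 2 to 0.02 without TFPIβ 1. FN1 read 9.34, 10.42 and 9.39 in TFPIα 2, TFPIα 3 and TFPIβ 3 against 7.56, 7.10 and 7.02 in TFPIβ 1, TFPIβ 2 and empty vector 2, 5.62-fold higher. THBS1 (thrombospondin-1, 1.88), TGFB2 (transforming growth factor β2, 1.61), CCN2 (connective tissue growth factor, 1.52) and POSTN (periostin, 1.15) were also apart and higher by at least 2-fold. COL1A1, a chain of fibrillar collagen, was instead lower, at 6.18, 6.38 and 6.64 against 7.54, 7.69 and 7.72, and so were the matrix protease gene MMP14 (-0.83) and its inhibitor TIMP2 (-0.86). COL1A1 is also a fibroblast marker, but the fibroblast genes DCN (-0.21) and LUM (1.19) overlapped between the sets.

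Genes that make and fold proteins were higher with small spread. All 32 measured ribosome biogenesis genes were apart and higher, with a median of 0.66 that was 0.65 within TFPIβ and 0.67 within replicate number 2. LYAR, a nucleolar regulator, was at 8.30, 8.58 and 8.44 in the high arrays TFPIα 2, TFPIα 3 and TFPIβ 3 and at 6.53, 6.46 and 6.74 in the low arrays TFPIβ 1, TFPIβ 2 and empty vector 2, 3.63-fold higher. RRS1 (1.54), NOP2 (1.13), an rRNA methyltransferase, and UTP20 (1.11), of the small subunit processome, followed. The ribosomal proteins themselves did not share this direction, with 1 of 39 apart and higher and 24 apart and lower (61.5%), but their median difference was only -0.10 (-0.15 with arrays centred). Of the 22 heat shock and chaperonin genes 19 were apart and higher, with a median of 0.53. HSPH1, a co-chaperone of the high molecular weight class, read 9.44, 9.42 and 9.39 against 7.49, 7.81 and 7.61, and the HSP90 gene HSP90AA1 differed by 0.88 with its co-chaperones FKBP4 (1.09) and STIP1 (0.92). Proteasome subunits were apart and higher in 18 of 25 (median 0.37, and 0.23 within TFPIβ) and splicing factors in 23 of 33 (median 0.36), and 0 of either list passed 2-fold.

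At the other end, genes of basal and stratified epithelium were lower in the high arrays. KRT15, a keratin of the basal layer, had the lowest difference of all genes outside the cell cycle lists. It read 6.60, 6.19 and 6.20 in TFPIα 2, TFPIα 3 and TFPIβ 3, and 10.48, 10.39 and 10.04 in TFPIβ 1, TFPIβ 2 and empty vector 2, so that it was 15.7-fold lower. TFPIα 1 with 10.02 and empty vector 1 with 9.98 stood with the low arrays and empty vector 3 with 8.29 between. Of the 10 measured genes of basal identity 8 were apart and lower, with a median of -0.65, among them TRIM29 (-1.63), the desmosomal cadherin DSG3 (-1.27), the hemidesmosomal integrin ITGB4 (-0.99) and EGFR (-0.63). KRT5 and KRT14 of the same list differed by only -0.34 and -0.55, both near the top of the signal range. VIM (0.07) and SOX9 (-0.01) did not separate the sets.

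Squamous differentiation genes were apart and lower in 11 of 21 and apart and higher in 0, with a median of -0.26 that was -0.30 within TFPIβ, -0.18 within replicate number 2 and -0.17 without TFPIβ 1. KRT10, the keratin of cells leaving the basal layer, was at 10.23, 9.35 and 9.73 against 10.87, 12.18 and 11.12, a difference of -1.62. KRT16 (-1.45), the cross-linking enzyme TGM1 (-1.23) and periplakin PPL (-1.17) also passed 2-fold. CASP14, the caspase of cornifying cells, was at 3.85, 3.73 and 3.75 in TFPIα 2, TFPIα 3 and TFPIβ 3 and at 6.20, 6.79 and 5.90 in TFPIβ 1, TFPIβ 2 and empty vector 2. Its high array values lay under the filter of 5, where signals approach background, as did those of 8 others among the 15 lowest genes, SELENOP and BBOX1 included. Desmosome and adherens junction genes took part, with desmoplakin DSP at 7.99, 8.07 and 8.11 against 9.36, 9.55 and 9.35, and E-cadherin CDH1 at -1.25. The 22 junction genes together had 7 apart and lower (31.8%) and 3 apart and higher (13.6%). The mesenchymal regulators ZEB1 (0.24), SNAI2 (-0.14) and CDH2 (-0.08) differed little.

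Growth arrest genes were lower in the high arrays. Of 19 measured CDK inhibitor and growth arrest genes 11 were apart and lower (57.9%) and 0 apart and higher, with a median of -0.53 that was -0.62 within TFPIβ and -0.39 within replicate number 2. TXNIP was at 9.51, 9.48 and 10.12 in TFPIα 2, TFPIα 3 and TFPIβ 3, and at 11.57, 11.70 and 11.68 in TFPIβ 1, TFPIβ 2 and empty vector 2. The 3 arrays in neither set, at 11.26 to 11.62, stood close to the low arrays. YPEL5 (-1.57), the antiproliferative genes BTG1 (-1.52) and TOB1 (-1.03), cyclin G2 (CCNG2, -0.95) and FOXO1 (-0.79) were apart and lower too. The CDK inhibitors proper were less marked, with -0.56 for CDKN1B and -0.53 for CDKN1C, while CDKN1A at 0.21 and CDKN2B at -0.20 overlapped between the sets. FBXO32, the atrogin ubiquitin ligase known as a FOXO target, was at 4.64, 4.47 and 4.97 against 6.33, 7.62 and 6.86. The list of p53 targets had 2 of 23 apart and higher (8.7%) and 6 apart and lower (26.1%). Its median of 0.04 ran from -0.17 to 0.15 when 1 array was left out (-0.17 without TFPIα 2, 0.15 without empty vector 2).

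Complement and lysosomal genes were lower as well. Of 14 measured acute-phase and antiprotease genes 9 were apart and lower, 5 of them by at least 2-fold, with a median of -0.87, the lowest of all lists. The complement proteases C1R and C1S start the classical pathway, and C1R read 8.26, 8.64 and 8.68 in TFPIα 2, TFPIα 3 and TFPIβ 3 against 10.01, 10.27 and 10.61 in TFPIβ 1, TFPIβ 2 and empty vector 2. C1S (-1.54), CFB (-1.57), C3 (-1.29) and CFI (-1.13) followed. The median of this list was -0.37 within TFPIβ and -1.36 within replicate number 2, and it was -0.58 without empty vector 2. Lysosome and autophagy genes were apart and lower in 17 of 28 (median -0.34), with the protease cathepsin D (CTSD, -0.88) and prosaposin (PSAP, -0.95). Interferon-stimulated genes were apart and lower in 21 of 46 and higher in 3, with a median of -0.23, and IFITM1 differed most, at 4.57, 4.70 and 5.44 against 7.03, 7.48 and 6.72. The core antiviral genes IFIT1 (0.10), IFIT2 (-0.11), IFIT3 (0.00) and ISG15 (0.29) overlapped between the sets. Class I antigen presentation genes were apart and lower in 7 of 12 (median -0.30, and -0.18 without empty vector 2), B2M by -0.47.

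The other genes among the 15 lowest were of mixed kinds. They were the alcohol dehydrogenase ADH1B (-2.45), the selenium carrier SELENOP (-2.30), the small heat shock protein CRYAB (-2.10), the sodium/proton exchanger SLC9A9 (-2.02), TMEM100 (-1.96), the protocadherins PCDHB14 (-1.94) and PCDH18 (-1.93), the zinc finger gene TSHZ2 (-1.93), CHI3L2 (-1.90) and BBOX1 (-1.90), an enzyme of carnitine synthesis. TSHZ2 was at 4.52, 4.41 and 4.50 in TFPIα 2, TFPIα 3 and TFPIβ 3 and at 6.14, 6.28 and 6.81 in TFPIβ 1, TFPIβ 2 and empty vector 2. CRYAB, a chaperone, was lower while the heat shock list was higher, and without TFPIβ 2, which had its highest signal of 7.59, its difference was -1.53.

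**Figure D3:**
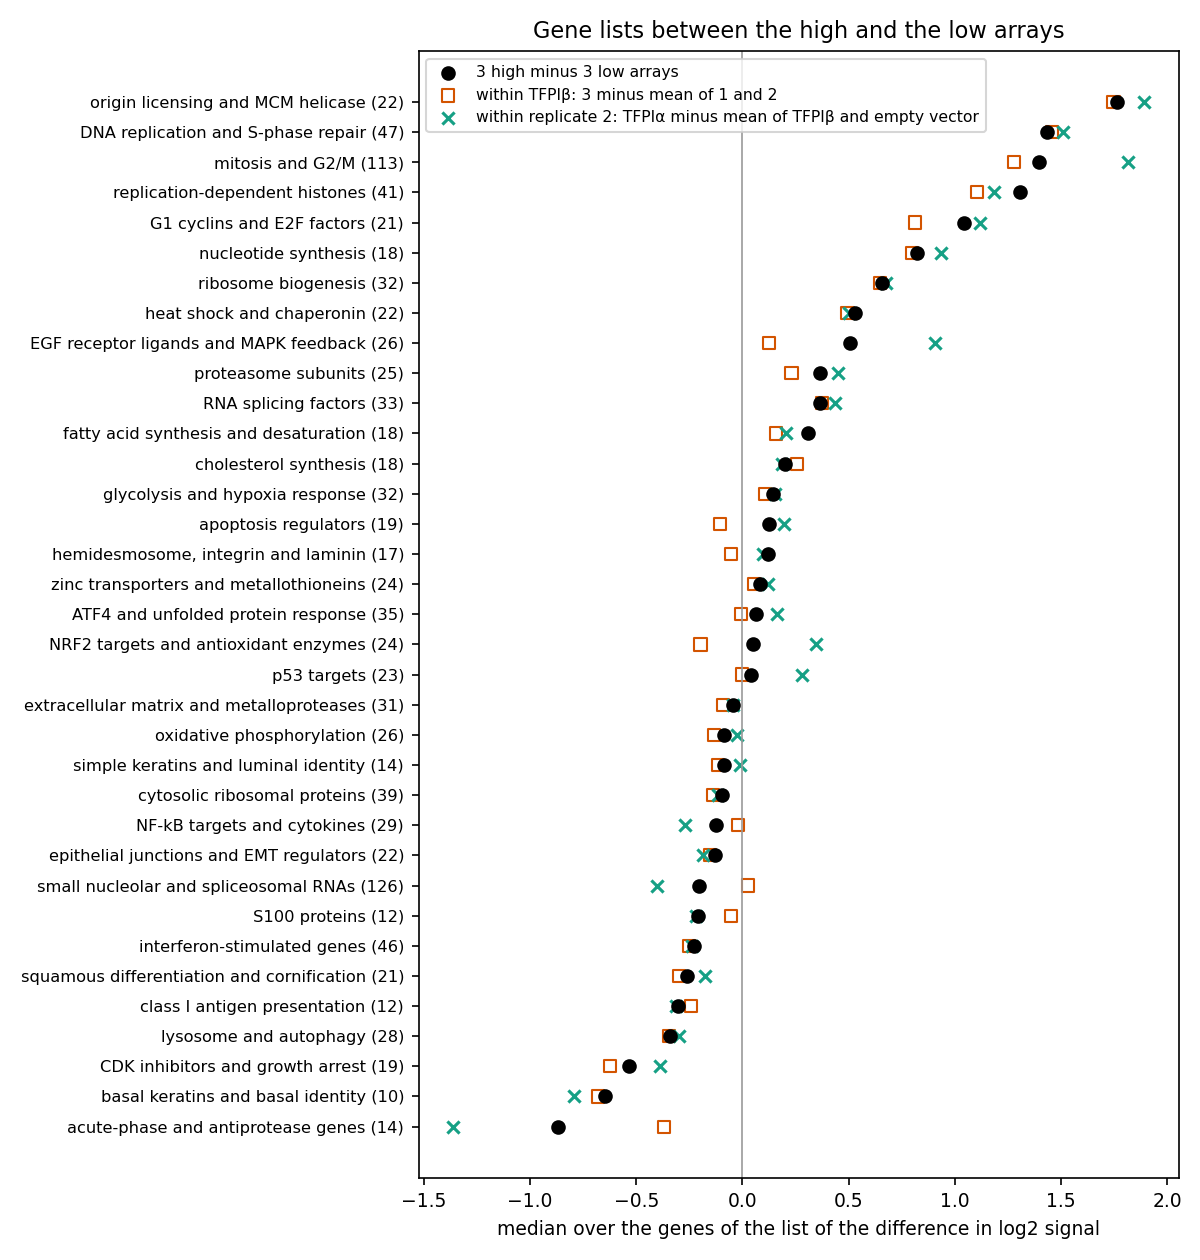
Median over the measured genes of each list (their number in parentheses) of the difference in log2 signal; black dots give the 3 high minus the 3 low arrays, orange squares TFPIβ 3 minus the mean of TFPIβ 1 and 2, and green crosses TFPIα 2 minus the mean of TFPIβ 2 and empty vector 2. The ribosome biogenesis list gave 0.65 to 0.67 in all 3, whereas the EGF receptor and MAPK list ran from 0.13 to 0.91 and the acute-phase list from -1.36 to -0.37.

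The 3 arrays that entered neither set give values that the choice did not use directly. TFPIα 1 stood with the high arrays in the cell cycle. Of 186 cell cycle probe sets at least 2-fold higher it was nearer the high mean in 180 (96.8%), against 53.9% over all probe sets, and it had covered a median of 93.9% of the distance from the low to the high mean. Of 275 probe sets at least 2-fold higher outside the cell cycle lists it was nearer the high mean in 170 (61.8%), and of 171 at least 2-fold lower in 54 (31.6%), with medians of 60.3% and 38.4% of the distance. Since TFPIα 1 had nearly been picked as a high array, its place in the cell cycle genes was close to fixed.

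By list, TFPIα 1 was nearer the high arrays in 22 of 22 licensing genes, 112 of 113 mitosis genes, 24 of 25 proteasome subunits and 27 of 33 splicing factors. It was nearer them in 9 of 32 ribosome biogenesis genes, 11 of 22 chaperones, 6 of 26 EGF receptor and MAPK genes and 4 of 19 growth arrest genes, with basal identity at 5 of 10. Squamous differentiation genes (15 of 21) and acute-phase genes (11 of 14) were mostly nearer the high arrays. The median of the MAPK list in TFPIα 1 was -0.13 relative to the low arrays, and DUSP6 at 5.36, IL6 at 4.61 and KRT15 at 10.02 lay within or close to the range of the low arrays. The array TFPIα 1 thus had cell cycle signals near the high set, while its DUSP6 and KRT15 signals were near the low set. Empty vector 1 and 3 were nearer the high mean in 44.6% and 40.9% of the cell cycle probe sets, against 49.0% and 47.2% over all probe sets. Outside the cell cycle lists they were nearer it in 32.4% each of the higher probe sets. Of the lower ones there, the shares were 31.6% and 42.7%. In the mitosis list they were nearer the high mean in 84 and 85 of 113 genes, but in the licensing list in 6 and 2 of 22. Between these 2 arrays, whose marker means were 7.0 and 6.71, 55.0% of all probe sets at least 2-fold higher and 28.2% of those at least 2-fold lower differed in the direction of the high and low arrays (49.0% and 35.5% with arrays centred on their medians), and over all probe sets empty vector 1 was above empty vector 3 in 52.7%.

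**Figure D4:**
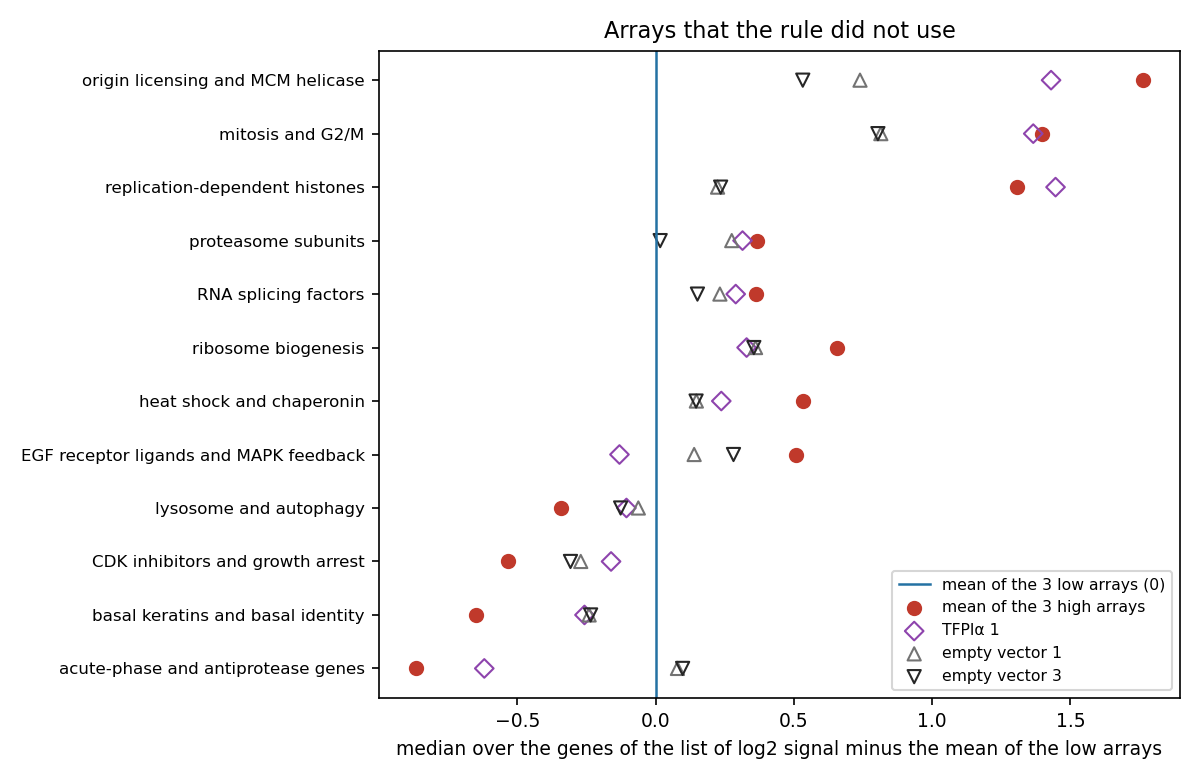
Median over the genes of 12 lists of the log2 signal minus the mean of the 3 low arrays (horizontal axis), for the mean of the 3 high arrays (red dots) and for the 3 arrays in neither set (open symbols); the blue line at 0 is the low arrays. TFPIα 1 lay near the high arrays for mitosis and histone genes but at -0.13 for the EGF receptor and MAPK list, where the high arrays lay at 0.51.

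The replicate number moved with several of these genes and cannot be fully told apart from the set, because the high arrays had the numbers 2, 3 and 3 and the low arrays 1, 2 and 2. In all 3 vectors DUSP6 was lowest in replicate 1 and highest in replicate 3, with 5.36 and 9.20 in TFPIα, 5.17 and 7.76 in TFPIβ, and 6.35 and 8.01 in the empty vector. IL6 and EREG had the same order of numbers 1 and 3 in every vector. Of the 26 EGF receptor and MAPK genes 13 were higher in replicate 3 than in replicate 1 in every vector, against 15.6% over all probe sets. The licensing genes gave 4 of 22, DNA replication genes 16 of 47, mitosis genes 35 of 113 and ribosome biogenesis genes 16 of 32. MCM6 was not higher in empty vector 3 than in empty vector 1. Lower in replicate 3 than in replicate 1 in every vector were 9 of 12 class I genes and 26 of 39 ribosomal protein genes. The interferon-stimulated genes gave 24 of 46 in that direction. Of the probe sets at least 2-fold lower outside the cell cycle lists, 64.9% were lower in replicate 3 than 1 in every vector. Of those at least 2-fold higher, 43.3% were higher in replicate 3 than 1 in every vector. Over all probe sets these shares were 22.0% and 15.6%. By the choice of arrays, TFPIβ 3 already differed from TFPIβ 1 in that direction in each selected probe set. The shares over all are therefore no like background. Within replicate number 2 alone, where the number was the same, the differences were 2.72 for DUSP6, 2.33 for IL6, -3.61 for KRT15 and -2.18 for TXNIP.

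**Figure D5:**
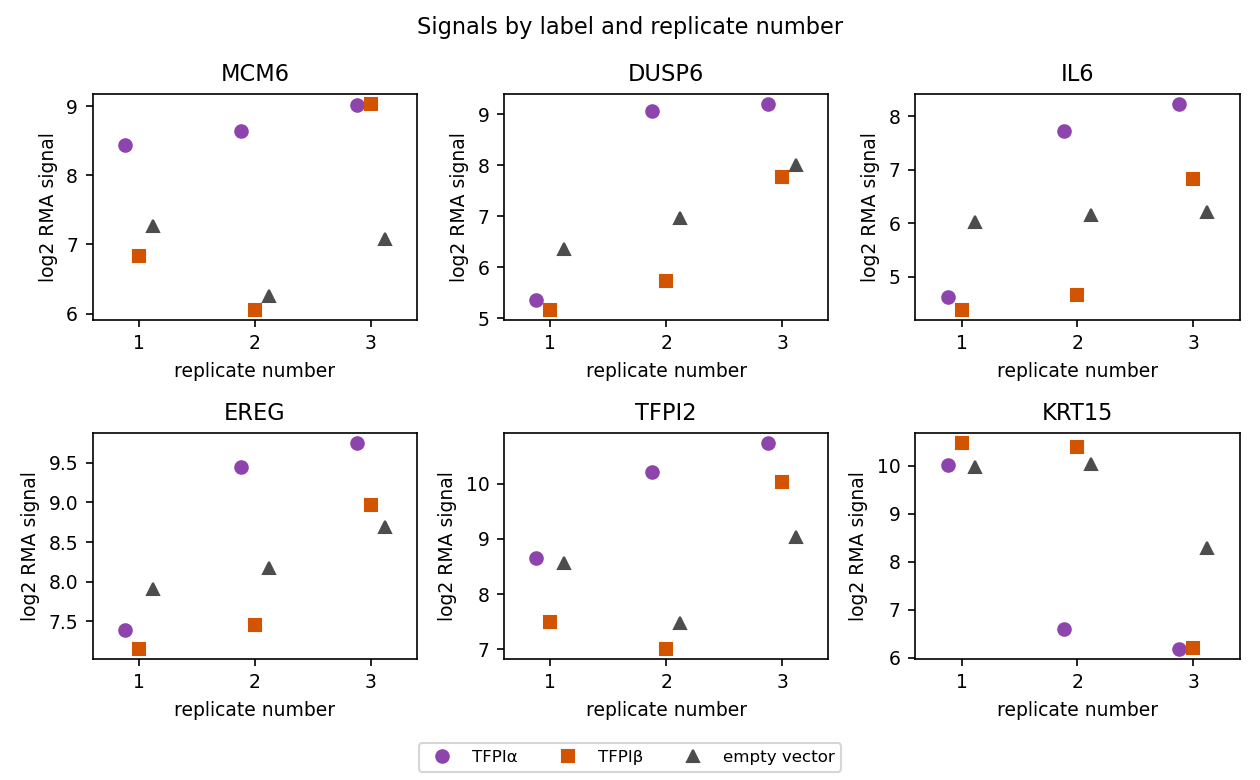
Log2 RMA signal (vertical axes, each with its own range) of MCM6, DUSP6, IL6, EREG, TFPI2 and KRT15 by replicate number (horizontal axes), with 1 point per array and colours for the 3 labels, set side by side for legibility. DUSP6 was lowest in replicate 1 of every label, while MCM6 was low in TFPIβ 1 and 2 and high in TFPIβ 3.

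The study's own question was which genes differ between the vectors. It reported differing transcripts for both isoforms against empty vector, from an analysis of variance at other thresholds and on more probe sets. Selected mRNAs were also measured there by quantitative PCR. The counts below depend on the thresholds used here and are no verdict on those lists. With limma on all 9 arrays, at an adjusted p under 0.05 and at least 2-fold, 1 of the 17482 probe sets was called between TFPIα and empty vector (0.00572%), 0 between TFPIβ and empty vector (0%) and 0 between TFPIβ and TFPIα (0%). The call was ATP1B1, a subunit of the sodium pump (log2 difference 1.95, limma adjusted p = 0.0466), which was apart between the sets but by only 0.79. Of the 747 probe sets apart by at least 2-fold, 0 were called in each comparison. Of them 278, 11 and 108 had an unadjusted limma p under 0.05, or 37.2%, 1.47% and 14.5% against 14.2%, 4.72% and 8.63% over all. These counts were partly fixed beforehand and test nothing, since the 747 were chosen from the same arrays. A probe set could enter only if TFPIβ 3 lay apart from TFPIβ 1 and 2, which widens the spread within that label. MCM6, itself a gene of the rule, differed by 1.84 (SE 0.67) between TFPIα and empty vector and by -1.39 (SE 0.67) between TFPIβ and TFPIα. Its limma adjusted p were 0.336 and 0.532, and 0.19 and 0.32 with the replicate number as a block. KRT15 gave -1.83 (SE 1.35) and TFPI2 1.52 (SE 0.85) between TFPIα and empty vector. Their limma adjusted p were 0.530 and 0.419, and 0.256 and 0.223 with the block. The 3 comparisons share arrays, and the high set held 2 arrays labelled TFPIα while the low set held 0. With the replicate number as a block, 1 of the 747 was called between TFPIβ and TFPIα, a probe set without gene symbol (log2 difference 2.12, SE 0.14, limma adjusted p = 0.0336, and 0.532 without the block).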

How the data were processed

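Total RNA of 9 samples was hybridised to Affymetrix Human Gene 1.0 ST arrays. The authors made the deposited log2 signals with RMA in Partek (versions and genome build not given in the sources used here, log base read from the range of the values) and they were used as deposited. Array number, not sequencing depth, limits the precision. Probe sets were named through the platform annotation: of 17482 with a highest signal of at least 5, 11838 had 1 gene symbol, 1150 several and 4494 none, and no symbol was changed through Entrez identifiers. The 6 arrays, the members and the 40 gene lists were chosen with earlier results of these data known. No mitochondrially encoded gene was measured.

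The mean of 3 high minus 3 low arrays was computed in Python 3.11.15 with pandas 2.3.3, and a probe set was apart where the sets did not overlap. The text names TFPI, the 4 markers, the 15 highest and 15 lowest genes outside the cell cycle lists and up to 4 genes per list by size of difference, with other list members by role after their values were seen. For genes with several probe sets the one with the highest mean was taken. Vectors were compared with limma 3.58.1 in R 4.3.3 and Benjamini-Hochberg adjustment. The p-values came from a model of the vectors without the replicate number, except where the block is named. Replicate numbers were taken to pair the arrays because residuals of same-numbered arrays correlated at 0.14 to 0.59 in all 9 pairs (the 18 other pairs -0.51 to 0.27). Both steps were tested on simulated data. Alternatives were no filter or a filter of 6, median centring, 1.5-fold, single-symbol probe sets, comparisons within TFPIβ or a replicate number, a model without variance moderation, an adjusted p under 0.1 and leaving out each array. Labels name puromycin and the methods neomycin as the selecting agent. Promoters are those of RefSeq, with no entry used here for KRT15, ETV5 and FAM111B.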

Additional observations from a re-analysis of the deposited data

How the results depend on the processing

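The counts of 527 higher and 220 lower probe sets moved by more than 1.5 times under 1 alternative, a fold of at least 1.5, which by construction gave 1429 and 792. Leaving out each of the 6 arrays gave 483 to 668 higher and 208 to 272 lower, and the comparison within replicate number 2, which is the replicate block for this contrast, gave 640 and 324 (within TFPIβ 566 and 230). With arrays centred on their medians, the share that differed the same way between empty vector 1 and 3 was 49.0% for the higher and 35.5% for the lower probe sets. The number of gene lists with a median above 0, markers of the rule and of other cell types set aside, was 20 of 35, and 17 to 20 when an array was left out. The medians that changed sign were small, such as p53 targets and NRF2 targets when centred (33 of 35 signs kept) and 6 lists within TFPIβ (29 of 35 kept). For the 747 probe sets in the limma comparisons, the choice of arrays partly fixed the number of calls. The replicate block moved the calls between TFPIβ and TFPIα from 0 to 1, and every other alternative, each array left out included, gave 0 in all 3 comparisons. The cause of these shifts was not tested.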

Other observations

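Cholesterol synthesis genes were apart and higher in 8 of 18, with SQLE (squalene epoxidase) at 0.80 and HMGCS1 at 0.77, and the fatty acid genes ELOVL6 (1.02), FASN (0.90) and SCD (0.76) were higher while the acyl-CoA synthetase ACSL1 was lower, at 9.27, 9.39 and 9.42 in the high arrays TFPIα 2, TFPIα 3 and TFPIβ 3 and 10.26, 10.30 and 10.71 in the low arrays TFPIβ 1, TFPIβ 2 and empty vector 2. Glycolysis and hypoxia genes were apart and higher in 12 of 32, with PFKP (phosphofructokinase) at 1.09 and VEGFA at 1.08. Oxidative phosphorylation genes had 3 of 26 apart and higher (11.5%) and 8 apart and lower (30.8%). Their median of -0.09 ran from -0.15 without empty vector 2 to -0.04 without TFPIβ 2.

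Stress lists were mixed. The unfolded protein response and ATF4 list had 7 of 35 apart and higher and 8 apart and lower, and its members DDIT3 (CHOP, -1.18) and SLC7A5 (an amino acid transporter, -0.94) were lower. Catalase (CAT) was at 6.57, 6.57 and 6.55 in the high arrays and 7.39, 7.90 and 7.57 in the low arrays. In its NRF2 and antioxidant list 3 of 24 were apart and higher (12.5%) and 5 apart and lower (20.8%). Apoptosis regulators were 6 apart and higher and 6 apart and lower of 19 (31.6% each), among them MCL1 at 0.62 and the death ligand TNFSF10 at -1.20. Of the S100 genes 5 of 12 were apart and lower (41.7%) and 1 higher (8.33%), with S100A3 at -1.07. S100A8 and S100A9 ran from 9.66 to 11.98 and from 6.76 to 10.20 with both sets overlapping. Zinc transporter and metallothionein genes had 5 of 24 apart and higher (20.8%) and 1 apart and lower (4.17%). Simple keratins and luminal genes had 1 of 14 apart and higher (7.14%) and 4 lower (28.6%). The hemidesmosome, integrin and laminin list had 3 of 17 (17.6%) and 5 (29.4%).

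Of 126 small nucleolar and spliceosomal RNAs, 27 were apart and higher (21.4%) and 36 apart and lower (28.6%). Over all probe sets these shares were 22.7% and 21.5%. The median of the list was -0.21, but 0.03 within TFPIβ. Without TFPIα 2 and without empty vector 2 it was -0.13 and -0.12. SNORD14E (1.46) and SNORD75 (1.33) were higher and SNORD116-24 (-1.32) was lower. CD14, listed as a leukocyte marker, was at 7.74, 8.15 and 8.25 in the high arrays and 6.96, 6.46 and 6.82 in the low arrays, but its highest values of 9.12 and 8.35 were in empty vector 3 and 1, while the leukocyte gene PTPRC stood at 2.23 ± 0.02 (mean ± SD, n = 9).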
